A study of Zea mays with 7 samples.

Results

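Isolated stretches of 20 or 21 bases on maize chromosome 2 were examined in small RNA libraries recovered by immunoprecipitation of ARGONAUTE proteins from immature ears. The deposited tables give the depth of aligned reads over each run of constant depth. A stretch is isolated when it touches no other covered run, so that all alignments in it share one start and one end and its length is the length of those alignments. The members were chosen by that length, which is itself read from the coverage, and the lengths were kept apart. There were 405274 stretches of 20 bases and 42083 of 21 bases over 7 libraries, of 4266704 isolated stretches and 16693901 covered runs in all.

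The libraries came from mop1-1/mop1-1 homozygotes (mm, 2 replicates), Mop1-1/mop1-1 heterozygotes (Mm, 2 replicates), the library labelled ago104 (replicate 2 alone) and B73 (2 replicates). According to the study, Mm and mm carry the B' epiallele of b1 and B73 carries b, so a difference from B73 cannot be told apart from a difference of stock. The labels name the antibodies as AGO104-AGO105 for every library, ago104 included, and do not say whether a library used one or both. The labels call the replicates biological, while the study also speaks of technical repeats, so p-values measure only the spread between these libraries, which may be technical in part.

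MOP1 is an RNA-dependent RNA polymerase that turns transcripts into double-stranded RNA. Dicer enzymes cut that RNA into small interfering RNAs, and ARGONAUTE proteins carry them to matching sequences, where RNA-directed DNA methylation can silence the locus. AGO104 is a maize ARGONAUTE of reproductive tissue. Paramutation at b1, a gene that controls plant pigment, depends on MOP1 and on tandem repeats upstream of the gene. In maize, small RNAs made with MOP1 map mostly beside genes, at transposons near them, and the longest class of plant small interfering RNAs is the one that falls most in mop1 mutants. Which RNA length a stretch of 20 or 21 bases stands for is not given in the sources used here, so the stretches are named by their measured length only.

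Depth was uneven. The libraries held 936656 and 1742053 alignment starts in mm, 1555520 and 1417599 in Mm, 20104173 in ago104, and 2781590 and 4431623 in B73. Isolated stretches held 77.3 to 80.4% of the covered bases in mm, 69.1 to 69.9% in Mm, 40.3% in ago104 and 62.7 to 66.4% in B73. Isolation is easier where coverage is thin, and the part of depth in the numbers below was not tested. Isolated stretches ran from 16 to 21 bases, and the next length present in any library was 32 bases.

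The mm libraries had few 20-base stretches and relatively many of 21 bases. The 20-base stretches numbered 9543 and 13256 in mm, 50372 and 48919 in Mm, 195900 in ago104, and 38257 and 49027 in B73. The 21-base stretches numbered 3384 and 5807 in mm, 4050 and 4271 in Mm, 14670 in ago104, and 3659 and 6242 in B73. For 20 bases the mm numbers lay below all others. For 21 bases mm replicate 1 had the lowest number of all libraries, while mm replicate 2 lay above both Mm libraries and between those of B73.

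As a share of all isolated stretches of the library, 20 bases made up 5.50 and 5.01% in mm, 9.63 and 11.1% in Mm, and 6.29 and 6.45% in B73. No genotype overlapped another, which also held at 16, 17 and 18 bases. At 16 bases the shares were 24.7 and 26.8% in mm, 10.4 and 10.8% in Mm, and 11.3 and 12.5% in B73. At 17 bases they were 33.0 and 34.6% in mm, 14.7 and 14.3% in Mm, and 15.7 and 16.4% in B73. Shares of lengths within a library are not independent of each other. The difference at 20 bases was -5.12 percentage points for mm minus Mm, -1.11 for mm minus B73 and 4.00 for Mm minus B73. Each gave p = 0.3333 in a two-sided exact permutation test, the smallest p that 2 libraries against 2 can give, so none could pass 0.05. In ago104 the share was 13.1% (95% Wilson interval 13.0 to 13.1%, counting error only), from 1 library and with no test. In these bulk samples, fewer cells of a type and less small RNA per cell cannot be told apart.

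The share of 21-base stretches ran the other way in mm. It was 1.95 and 2.20% in mm, 0.774 and 0.971% in Mm, and 0.602 and 0.821% in B73. The mm libraries lay above the rest, by 1.20 points over Mm and 1.36 points over B73 (exact permutation p = 0.3333 each, the smallest possible). Mm minus B73 was 0.161 points (exact permutation p = 0.667), and those genotypes overlapped. In ago104 the share was 0.980% (95% Wilson interval 0.964 to 0.996%).

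**Figure D1:**
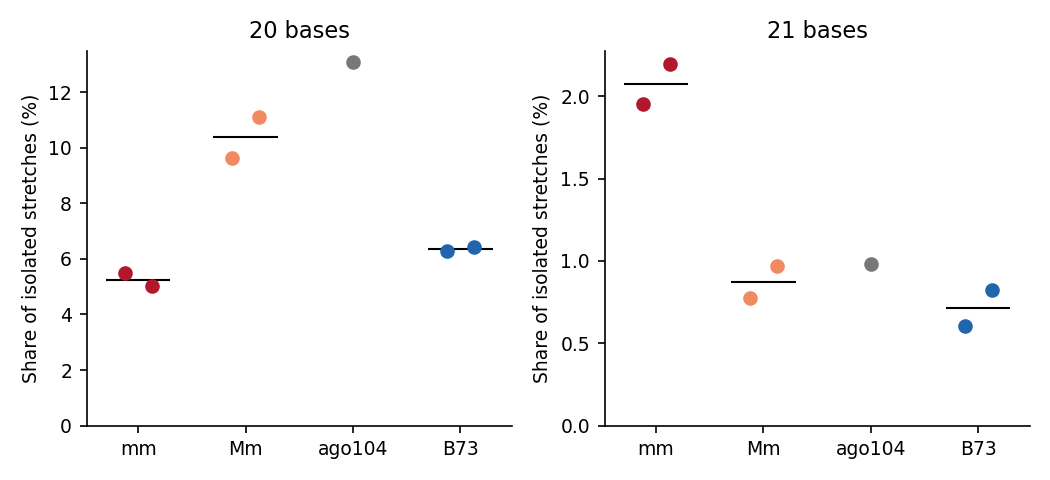
Share of isolated stretches that were 20 bases (left) or 21 bases (right) long, in percent, by genotype. Each point is a library and each line the mean of 2 replicates. At 20 bases the Mm points at 9.63 and 11.1% stand above both mm and B73, while at 21 bases the mm points at 1.95 and 2.20% stand above all others.

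The direction at 20 bases depended on what it was set against. For every 100 isolated stretches of 19 bases there were 34.7 and 41.0 of 20 bases in mm, 23.2 and 26.6 in Mm, 33.3 in ago104, and 15.2 and 15.9 in B73. By this measure mm lay above Mm and B73, whereas its share of all isolated stretches was the lowest. The 19-base stretches themselves made up 15.9 and 12.2% of isolated stretches in mm, 41.4 and 41.8% in Mm, 39.3% in ago104, and 41.5 and 40.7% in B73. For every 100 stretches of 20 bases there were 35.5 and 43.8 of 21 bases in mm, against 8.04 and 8.73 in Mm, 7.49 in ago104, and 9.56 and 12.7 in B73.

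At the edge of the rule, few runs of these lengths were left out for touching another. Between 97.95 and 98.9% of 20-base runs and between 93.9 and 99.6% of 21-base runs were isolated in mm, Mm and B73, against 96.4 and 87.7% in ago104. Among members, those with a single uncovered base to the next run made up 0.498 to 1.64% at 20 bases and 0.758 to 1.78% at 21 bases in those 6 libraries. Of the 20-base runs left out, 37.1 to 75.2% had a depth of 2 or more.

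Most members rested on a single alignment. A depth of 2 or more was found in 4.98 and 4.73% of 20-base stretches in mm, 5.15 and 4.13% in Mm, and 5.63 and 3.30% in B73. At 21 bases the same share was 4.49 and 3.93% in mm, 4.44 and 3.39% in Mm, and 5.68 and 2.64% in B73. All genotypes overlapped at both lengths, with differences of means between -0.244 and 0.387 points (exact permutation p from 0.667 to 1). In ago104, the deepest library, the share was 17.7% at 20 bases and 16.2% at 21 bases.

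The deepest 20-base stretches reached 26 and 9 alignments in mm, 14 and 8 in Mm, 65 in ago104, and 29 and 35 in B73. No 21-base stretch of mm, Mm or B73 went above 4, and the deepest in ago104 held 23. Within libraries, 21-base stretches had a depth of 2 or more less often than 20-base ones in 5 of 6 libraries, with a mean difference of -0.555 points. That difference gave p = 0.0625 in a two-sided exact permutation test that turns the sign of each library's difference, and did not pass 0.05.

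Stretches of 21 bases lay inside protein-coding genes more often than those of 20 bases in each library. Protein-coding genes cover 8.44% of the chromosome. The 21-base stretches fell inside them in 32.2 and 31.0% of cases in mm, 19.9 and 22.6% in Mm, 11.2% in ago104, and 21.6 and 26.9% in B73. For 20 bases the share was 18.96 and 21.5% in mm, 10.3 and 10.99% in Mm, 6.69% in ago104, and 10.2 and 11.4% in B73. The ago104 value at 20 bases was below the share of the chromosome that genes cover, and every other value was above it.

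Over mm, Mm and B73 together, 25.7% of 21-base and 13.9% of 20-base stretches lay inside genes, as means of 6 libraries. The mean difference was 11.8 points, higher in 6 of 6 libraries and ranging from 9.51 to 15.5 points (SD 2.29). The exact permutation test over the signs gave p = 0.03125, the smallest that 6 libraries allow. After Benjamini-Hochberg adjustment over the 10 such comparisons of position and depth it was 0.0521, which does not pass 0.05. The test pools genotypes and reads each library as a unit.

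The same held against the shorter lengths. The 21-base stretches exceeded those of 16 to 19 bases inside genes by 11.7 points (6.51 to 16.5, SD 4.10, 6 of 6 libraries, exact permutation p = 0.03125, adjusted 0.0521). In ago104 that difference was 0.696 points. Adding 2 kb on both sides of genes, which covers 13.8% of the chromosome, gave 33.5% of 21-base and 22.7% of 20-base stretches, a difference of 10.8 points (SD 2.26, 6 of 6 libraries, exact permutation p = 0.03125, adjusted 0.0521).

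Stretches of 20 bases differed from shorter ones in opposite directions by genotype. Inside genes, mm had 18.96 and 21.5% of 20-base stretches against 15.7 and 15.6% of those of 16 to 19 bases. Mm had 10.3 and 10.99% against 13.3 and 13.3%, and B73 had 10.2 and 11.4% against 13.0 and 12.9%. Both mm libraries were therefore higher at 20 bases, by 3.24 and 5.89 points, and all 4 libraries of Mm and B73 were lower, by 1.55 to 3.00 points. The ago104 library was also lower. Over the 6 libraries the mean difference was -0.079 points (exact permutation p = 1). The shorter lengths are mixed differently by genotype, and against 19 bases alone B73 replicate 2 was not lower (11.40 against 11.37%). Coverage also differed between the genotypes, with 3782910 and 5966873 covered bases in mm, 13887447 and 11562435 in Mm, and 16696690 and 22108185 in B73, and its part in these differences was not tested.

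**Figure D2:**
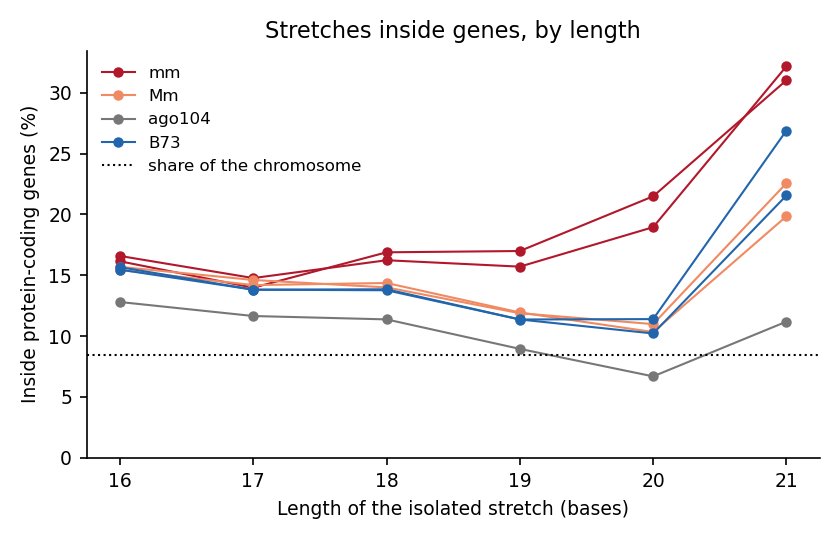
Share of isolated stretches inside protein-coding genes, in percent, by their length in bases; each line is a library and the dotted line is the 8.44% of the chromosome that those genes cover. The mm lines climb at 20 and 21 bases, to 32.2 and 31.0%, while Mm, ago104 and B73 replicate 1 have their lowest share at 20 bases, B73 replicate 2 is level between 19 and 20 bases at 11.4%, and every line is higher at 21 bases.

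Members were spread over many genes rather than piled in a few. Of 4090 protein-coding genes on the chromosome, 1190 and 1559 held a 20-base stretch in mm, 2123 and 2148 in Mm, 3192 in ago104, and 1857 and 2284 in B73. For 21 bases the numbers were 785 and 1099 in mm, 642 and 720 in Mm, 1089 in ago104, and 622 and 1059 in B73. The mm libraries thus reached fewer genes at 20 bases, but mm replicate 2 reached the most of the 6 at 21 bases. The 10 genes with the most stretches held 4.14 to 5.09% of the genic 20-base stretches and 4.34 to 6.27% of the genic 21-base ones in mm, Mm and B73.

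In all, 3648 genes (89.2%) held a 20-base stretch in at least 1 of the 6 libraries and 368 did in all 6. At 21 bases these numbers were 2347 (57.4%) and 62. The genes with the most members were long. LOC100384732, which spans 94366 bp, held 6 and 10 stretches of 20 bases in mm, 25 and 33 in Mm, 62 in ago104, and 26 and 32 in B73. Its 21-base stretches numbered 5 and 4 in mm, 5 and 4 in Mm, 8 in ago104, and 1 and 8 in B73. LOC100382858 was shorter, at 19551 bp, and held 13 and 11 stretches of 20 bases in mm, 16 and 19 in Mm, 7 in ago104, and 6 and 11 in B73. It was picked out after its values were seen, as the 1 gene among the 15 richest in 20-base stretches that spans less than 50 kb.

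Members in genes of structural RNAs were few in number, though these genes are also a small part of the chromosome. The tRNA genes, which carry amino acids in translation, held 7 and 4 stretches of 20 bases in mm, 3 and 4 in Mm, 4 in ago104, and 2 and 5 in B73. The snoRNA genes, whose RNAs guide modification of other RNAs, held 3 and 5 in mm, 7 and 7 in Mm, 1 in ago104, and 4 and 4 in B73. At 20 bases the tRNA genes thus held 0.0734 and 0.0302% of stretches in mm, 0.00596 and 0.00818% in Mm, 0.00204% in ago104, and 0.00523 and 0.0102% in B73, and they cover 0.00467% of the chromosome. The snoRNA genes held 0.0314 and 0.0377% in mm, 0.0139 and 0.0143% in Mm, 0.00051% in ago104, and 0.0105 and 0.00816% in B73, and cover 0.00369%. For both classes the mm shares were the highest, on at most 7 stretches a library and with no test. The rRNA genes held 4 and 3 in mm, 2 and 3 in Mm, and 0 in ago104 and both B73 libraries. The snRNA genes did not follow, with 0 and 0 in mm, 5 and 0 in Mm, 0 in ago104, and 0 and 3 in B73. Nor was the tRNA order particular to 20 bases. At 19 bases that share was 0.0364 and 0.0186% in mm, 0.00323 and 0.00924% in Mm, and 0.00436 and 0.00453% in B73. At 21 bases neither the tRNA nor the snoRNA genes held more than 6 stretches in any library, and the order was not kept. The snoRNA share was 0.0591 and 0.0861% in mm, 0.148 and 0.0937% in Mm, and 0.0547 and 0.0801% in B73. The tRNA share was 0.148 and 0.0344% in mm, 0.0247 and 0.0702% in Mm, and 0.0547 and 0.0160% in B73. The 26 miRNA genes held 1 stretch of 20 bases in Mm replicate 1, 3 in ago104 and 1 of 21 bases in B73 replicate 1.

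Along the chromosome, 20-base stretches of mm were relatively more numerous in windows near both ends and in 1 interior window, and less so in others of the interior. The higher share of mm at the ends was not confined to 20 bases. Of the 19-base stretches, 19.17 and 19.19% lay in the outer 20 Mb at both ends in mm. The same share was 17.59 and 17.78% in Mm, and 17.37 and 16.99% in B73. Windows of 19-base stretches were not tested. Windows of 5 Mb were scaled to 10000 stretches of 20 bases per library and fitted in limma over the 6 libraries, with Benjamini-Hochberg adjustment over the 49 windows. For mm minus Mm, 12.2% of windows were called, 5 higher and 1 lower. Between mm and B73, 28.6% were called, 9 higher in mm and 5 lower; scaling by the median ratio of windows gave 9 higher and 1 lower. For Mm minus B73, 0% were called, with 2 windows at an unadjusted p under 0.05.

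The window from 5000001 to 10000000 held 253.6 and 248.9 stretches per 10000 in mm and 194.95 and 197.1 in Mm, with 199.96 and 196.4 in B73. The groups did not overlap, as in 57.1% of all 49 windows for mm minus Mm and 51.0% for mm minus B73. The log2 difference was 0.36 ± 0.053 (SE) for mm minus Mm (limma adjusted p = 0.00325) and 0.34 for mm minus B73 (limma adjusted p = 0.00298). Near the other end, the window from 215000001 to 220000000 held 273.5 and 265.5 in mm, 222.1 and 214.03 in Mm, and 209.9 and 210.5 in B73. Its log2 differences were 0.30 from Mm (limma adjusted p = 0.00325) and 0.36 from B73 (limma adjusted p = 0.00146). The window from 175000001 to 180000000 was also higher in mm, with log2 differences of 0.29 from Mm and 0.32 from B73 (limma adjusted p = 0.00384 and 0.00257).

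Windows lower in mm lay in the interior. From 135000001 to 140000000 there were 159.3 and 163.7 stretches per 10000 in mm, against 198.9 and 198.9 in Mm, and 186.4 and 201.3 in B73. The log2 difference was -0.30 from Mm (limma adjusted p = 0.0161) and -0.26 from B73 (limma adjusted p = 0.0258). For mm minus B73 the windows starting at 115000001 and 165000001 had log2 differences of -0.24 each (limma adjusted p = 0.0343 and 0.0377). Raw numbers of 20-base stretches in a window ran from 145 to 265 in mm replicate 1 and from 217 to 352 in mm replicate 2, fewer than in any other library. Without mm replicate 1 the calls for mm minus Mm came to 22 and without mm replicate 2 to 21, against 3 without either Mm replicate. The calls between mm and B73 came to 24 and 23 without mm replicate 1 or 2, to 8 without either Mm replicate, and to 4 and 2 without B73 replicate 1 or 2.

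The window that holds b1, from 15000001 to 20000000, did not stand out. It had 215.9 and 205.2 stretches of 20 bases per 10000 in mm, 214.6 and 210.6 in Mm, and 208.3 and 207.2 in B73. The log2 difference was -0.01 ± 0.057 (SE) for mm minus Mm (limma adjusted p = 0.859).

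No window of 21-base stretches was called between genotypes. In windows of 10 Mb, 0% of 25 were called in each of the 3 comparisons by limma, with 5 windows at an unadjusted p under 0.05 in each. Of the 21-base stretches, 21.3 and 21.8% lay in the outer 20 Mb at both ends in mm, 20.3 and 18.4% in Mm, 16.4% in ago104, and 18.9 and 20.2% in B73. Those ends make up 16.4% of the chromosome. At 20 bases the values were 19.5 and 18.97% in mm, 17.3 and 17.3% in Mm, 15.5% in ago104, and 16.6 and 17.1% in B73. The 21-base share was higher by 2.33 points on average (SD 0.777, 6 of 6 libraries, exact permutation p = 0.03125, adjusted 0.0521).

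**Figure D3:**
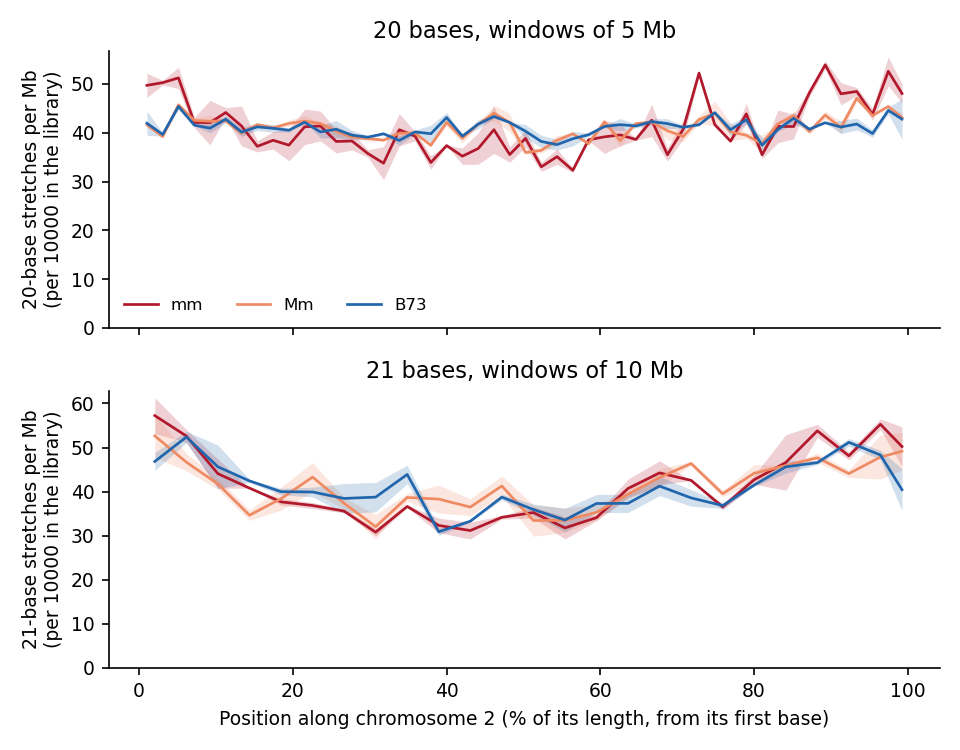
Isolated stretches per Mb, out of 10000 of the same length in the library, along chromosome 2 as a percent of its length; upper panel 20 bases in windows of 5 Mb, lower panel 21 bases in windows of 10 Mb. Lines are means of 2 replicates for mm, Mm and B73 and bands span the replicates; at 20 bases the mm line stands above the others near both ends, where the window starting at 5000001 had 253.6 and 248.9 stretches per 10000.

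When 20-base stretches were instead counted per 1000 isolated stretches of the same window, the genotypes differed across the whole chromosome. For mm minus Mm, 100% of the 49 windows were called lower, with a median log2 difference of -0.99. Between mm and B73, 44.9% were called, all 22 of them lower in mm. For Mm minus B73, 100% were called higher, with a median log2 difference of 0.69. At 21 bases, 100% of the 25 windows were called higher both for mm minus Mm and for mm minus B73, with median log2 differences of 1.14 and 1.39. For Mm minus B73 at 21 bases, 0% were called by limma, with 1 window at an unadjusted p under 0.05. These calls restate the shares of the whole libraries given above, which rest on the length that the rule used. Every window repeats the share of its library, so the windows are not independent and the calls add no support. Over libraries, no such difference could pass 0.05 in the exact permutation test.

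In the b1 tandem repeats, which begin at 19760818 and end at 19766788 on the chromosome of the tables, members were few, in a span of 5971 bp. Over the whole chromosome, 20-base stretches numbered 39.2 and 54.4 per Mb in mm, 206.7 and 200.7 in Mm, 803.9 in ago104, and 157 and 201.2 in B73. Those of 21 bases were rarer. At such densities a span this short holds few members, so the counts do not show that the repeats lack them. The 7 repeats held 0 and 0 stretches of 20 bases in mm, 2 and 1 in Mm, 3 in ago104, and 0 and 0 in B73. They held no 21-base stretch in any of the 7 libraries. At these depths the differences between genotypes in the repeats cannot be told from counting error. With 50 kb on both sides added, 20-base stretches numbered 5 and 6 in mm, 19 and 28 in Mm, 65 in ago104, and 26 and 30 in B73. The gene of MOP1 itself (LOC100502460) held 0 and 0 stretches of 20 bases in mm, 0 and 0 in Mm, 3 in ago104, and 1 and 1 in B73.

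Members seldom recurred at the same place. Of the 20-base stretches, 134 had the same start and end in both mm libraries, 723 in both Mm libraries and 574 in both B73 libraries. That is 1.40% of mm replicate 1 and 1.01% of mm replicate 2, 1.44 and 1.48% of the Mm libraries, and 1.50 and 1.17% of the B73 libraries. At 21 bases, 42 were shared in mm (1.24 and 0.723%), 16 in Mm (0.395 and 0.375%) and 8 in B73 (0.219 and 0.128%). The mm libraries thus shared the most 21-base stretches, in number and as a share of either library, and the fewest 20-base stretches in number.

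Over all members, replicates shared more than genotypes did on average, which did not hold at 21 bases among stretches with a depth of 2 or more (1.42% between replicates and 1.48% across genotypes). Over the 6 ordered pairs of replicates, 1.33% of 20-base stretches were shared, ranging from 1.01 to 1.50%. Over the 24 ordered pairs across genotypes the mean was 0.676%, ranging from 0.136 to 1.37%. Those whose other library was mm, with its 9543 or 13256 stretches, gave 0.136 to 0.321%. For mm replicate 1 the share was 1.40% with mm replicate 2, and 1.24 and 1.37% with Mm. For mm replicate 2 it was 1.01% with mm replicate 1, and 0.958 and 1.18% with Mm. The part of list size in these means was not tested. At 21 bases the means were 0.513% (0.128 to 1.24%) between replicates and 0.343% (0.117 to 0.798%) across genotypes, and at 19 bases they were 2.26 and 1.12%. The ranges overlapped at both 20 and 21 bases, and pairs that share a library are not independent, so no test was made. Much of each library was simply uncovered in its replicate, which for 20-base stretches held for 65.5 to 89.8%.

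**Figure D4:**
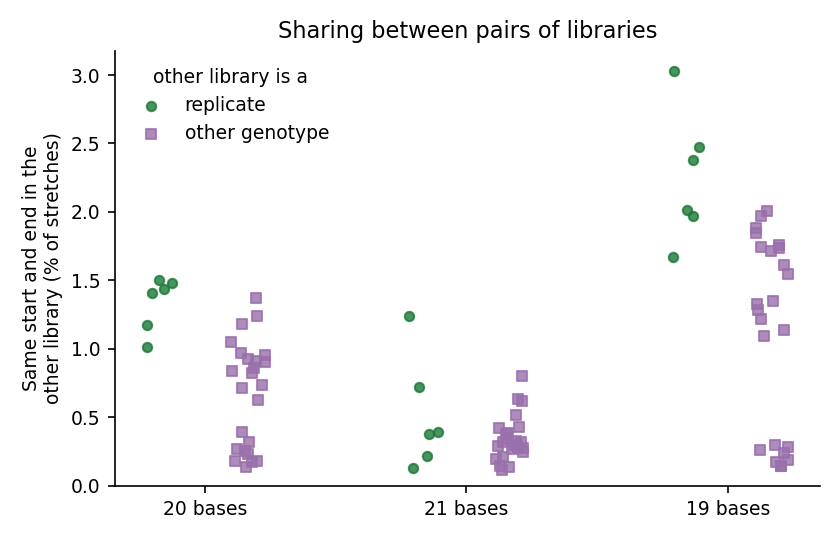
Percent of isolated stretches of a library with the same start and end in another library, for ordered pairs among the 6 libraries of mm, Mm and B73, at 20, 21 and 19 bases. Circles are pairs of replicates and squares pairs across genotypes; replicate pairs lie between 1.01 and 1.50% at 20 bases, and at 21 bases the circles, from 0.128 to 1.24%, overlap the squares, from 0.117 to 0.798%.

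Pooled over the 6 libraries there were 205822 distinct 20-base stretches, of which 3270 (1.59%) were isolated in 2 or more libraries, 239 in 3 or more and 3 in all 6. There were 27185 distinct 21-base stretches, of which 209 (0.769%) recurred, 17 in 3 or more libraries, 2 in 4 and none in 5 or 6. By genotype, 54 of the 20-base stretches and 6 of the 21-base ones were isolated in mm, Mm and B73 alike. A further 1429 of the 20-base stretches (0.694%) were found in Mm and B73 but not in mm. In mm and Mm alone there were 391 (0.190%), and in mm and B73 alone 193 (0.0938%). At 19 bases the same shares were 1.22, 0.163 and 0.135%. The mm libraries held the fewest 20-base stretches, and the part of list size in these counts was not tested. Both replicates of mm alone held 81 of the 20-base stretches, both of Mm alone 620 and both of B73 alone 502. These were out of 134, 723 and 574 isolated in both replicates of mm, Mm and B73. At 21 bases those numbers were 35, 11 and 7, out of 42, 16 and 8.

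Stretches that recurred were also covered in ago104. Of the 239 stretches of 20 bases isolated in 3 or more of the 6 libraries, 231 (96.7%) were covered there and 29 (12.1%) were isolated there too. Among all 205822, the shares were 73.2 and 1.35%. At 21 bases, all 17 were covered and 4 isolated in ago104.

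One 20-base stretch was isolated with the same start and end in every library. It lies at chr2:220765710-220765729, outside any annotated gene, 17767 bp from LOC100286850 (CYP727A4), the nearest gene in the RefSeq annotation. Its depth was 8 and 9 in mm, 2 and 3 in Mm, 65 in ago104, and 29 and 35 in B73. Scaled to 1000000 units of summed coverage, those depths were 0.484 and 0.293 in mm, 0.0691 and 0.114 in Mm, 0.170 in ago104, and 0.575 and 0.435 in B73. On that scale both Mm libraries were below the others. It was chosen as 1 of the deepest 20-base members, by mean scaled depth among those isolated in 4 or more libraries. These values are therefore a description.

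The other stretches isolated in all 6 were shallower. The one at chr2:9542313-9542332, 1183 bp from LOC118476222, had depths of 1 and 4 in mm, 1 and 2 in Mm, and 1 and 8 in B73. The one at chr2:175038442-175038461, 4640 bp from LOC103164609, had 1 and 4 in mm, 1 and 1 in Mm, and 1 and 11 in B73. Both were covered in ago104, with depths of 24 and 23, but touched other runs there. A further 6 stretches of 20 bases were isolated in 5 of the 6 libraries, of which 1 lay inside a gene, LOC103649462.

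**Figure D5:**
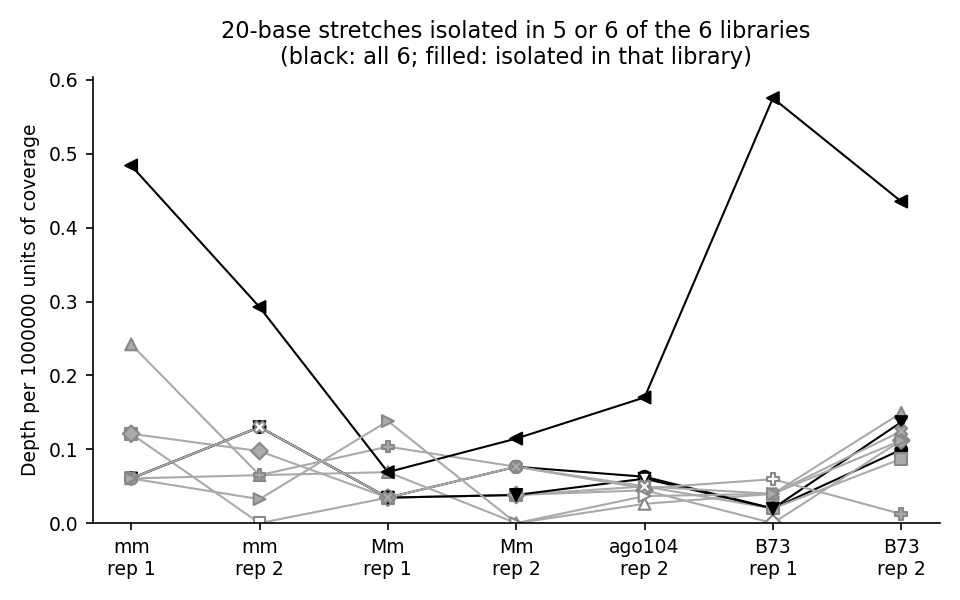
Depth per 1000000 units of summed coverage of the 9 stretches of 20 bases isolated in 5 or 6 of the libraries of mm, Mm and B73, by library, with ago104 beside them. Black marks the 3 isolated in all 6 and filled symbols the libraries where the stretch is isolated; the uppermost line is the stretch near LOC100286850, at 0.484 and 0.293 in mm, 0.0691 and 0.114 in Mm, and 0.575 and 0.435 in B73.

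Some members were deepest in 1 genotype of mm, Mm and B73. Inside LOC100278507, the stretch at chr2:195717786-195717805 had depths of 5 and 4 in mm, 1 and 1 in Mm, 16 in ago104, and 1 and 1 in B73, and was not isolated in ago104 or B73. Inside LOC109939218, the stretch at chr2:8630060-8630079 had 5 and 5 in Mm, 0 in both mm and both B73 libraries, and 6 in ago104. The stretch at chr2:144051483-144051502, 11891 bp from a pseudogene, LOC103648952, had 4 and 9 in B73 and was uncovered in the other 5 libraries. These were picked from the deepest of their genotype, and a depth of 0 beside so few alignments does not show absence. Others picked by that rule were not confined to 1 genotype. At chr2:205094119-205094138, depths were 7 and 1 in Mm, 1 and 3 in mm, and 15 and 46 in B73. At chr2:56813841-56813860 they were 1 and 6 in Mm, 4 and 4 in mm, and 0 and 1 in B73. At chr2:115157332-115157351, among the deepest in B73, they were 2 and 12 in B73, 4 and 2 in mm, and 2 and 0 in Mm.

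At 21 bases the most recurrent members were shallow. The stretch at chr2:177257063-177257083, with a pseudogene (LOC109939162) as its nearest gene, had depths of 2 and 3 in mm, 1 and 0 in Mm, 24 in ago104, and 1 and 1 in B73. The stretch at chr2:230264933-230264953, inside LOC103648033, had 0 and 2 in mm, 0 and 2 in Mm, 3 in ago104, and 1 and 2 in B73. Each was isolated in 4 of the 6 libraries. Inside LOC100501177, the stretch at chr2:209928249-209928269 had 2 and 2 in B73 and was uncovered in all other libraries.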

How the data were processed

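The authors deposited coverage as a signal per run of constant depth, unscaled and with uncovered bases left out, for chromosome 2. Per the labels and the study's methods, reads were trimmed, aligned with Bowtie 1.2.2 allowing mismatches and up to 2 placements per read, and turned to coverage with bedtools, so a read may count in 2 places. For its alignment to the b1 repeats and their flanks the study set another rule, which discarded reads with too many placements. Under that rule a read may count in more than 2 places. Which alignment the tables hold is not stated. Genes beyond the b1 repeats sit 7855 bp further along than in B73 version 5, and the tables were read as a composite chromosome. Depth, from 936656 to 20104173 alignment starts, limits precision, and 95% Wilson intervals cover counting error only.

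Isolated stretches were extracted with Python 3.11.15 (numpy 2.4.6, pandas 2.3.3, scipy 1.17.1, matplotlib 3.10.9). Genes came from RefSeq for assembly Zm-B73-REFERENCE-NAM-5.0, shifted by -2 bp before and 7855 bp after the repeats, as set from 17 and 136 tRNA genes. Strand is unknown. The members, lists and tests were chosen with earlier results of these data known. Numbers per window, as log2 of the number per 10000 with a pseudocount of 1, entered 1 limma model of all 3 genotypes with a trend (limma 3.58.1, R 4.3.3), with Benjamini-Hochberg adjustment at 0.05. Other comparisons used two-sided exact permutation tests over libraries. On simulated windows for mm minus Mm, 8 of 8 changed 20-base windows were recovered with 1 false call, and 7 of 8 at 21 bases with 0. The simulated libraries varied by counting error alone, and the planted changes were larger than the differences called. This recovery therefore does not show how reliable the calls are. The windows named are that of b1 and up to 3 of the largest rises and falls that passed without overlap. The stretches named are from among the deepest isolated in 4 or more of 6 libraries and the deepest in both libraries of a genotype. Those isolated in all 6 were added after seeing the data. No sequence is printed, since no genome was used here. The tables named by antibody and length class enter no comparison.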

Additional observations from a re-analysis of the deposited data

Results flagged for a closer look

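The position of 20-base stretches relative to shorter ones had opposite signs between genotypes. Inside protein-coding genes, the share at 20 bases minus that at 16 to 19 bases averaged 4.56 points in mm, -2.66 points in Mm and -2.14 points in B73. Within 2 kb of genes the same difference averaged 6.02 points in mm, -2.84 in Mm and -2.69 in B73. In the outer 20 Mb at both ends it averaged 1.28 points in mm, -0.355 in Mm and -0.358 in B73, where 1 B73 library lay at 0.036. In each case both mm libraries were above 0 and both Mm libraries below. Both mm libraries lay above the other 4, and a two-sided exact permutation test of those 2 libraries against 4 gave p = 0.0667 for each measure, the smallest it allows, so 0.05 could not be reached. The measures were flagged because their signs differed between genotypes. That test therefore rests on the values that picked them and adds no support. The lengths of 16 to 19 bases are mixed differently by genotype, with few of 19 bases in mm. Against 19 bases alone, mm replicate 2 was lower at the ends (18.97 against 19.19%). B73 replicate 2 was then higher inside genes (11.40 against 11.37%). Within 2 kb no sign changed.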

How the results depend on the processing

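The shares of 20- and 21-base stretches among isolated ones kept their direction under all 54 alternatives. Leaving out 1 library at a time gave -5.86 to -4.37 points at 20 bases for mm minus Mm, and 1.08 to 1.32 points at 21 bases. The excess of 21-base stretches inside genes, near genes and at the ends also kept its direction in all runs. Their unadjusted p of 0.03125 is lost by construction with 1 library left out, since 5 libraries cannot give p under 0.0625, and their adjusted p did not pass 0.05 with all 6. The 21-minus-20 difference was then 11.04 to 12.2 points inside genes, 10.03 to 11.3 within 2 kb and 2.19 to 2.59 at the ends. Against 16 to 19 bases it was 10.8 to 12.7, 9.90 to 12.1 and 2.25 to 2.90.

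Differences that were near 0 changed sign. Without 1 library, the depth-of-2 share at 20 bases ran from -0.296 to 0.729 for mm minus Mm, -0.777 to 1.55 for mm minus B73 and -0.993 to 1.34 for Mm minus B73, and for a depth of 5 or more Mm minus B73 was -0.0185. At 21 bases it ran from -0.235 to 0.814, -1.48 to 1.57 and -1.76 to 1.28, and no 21-base stretch of the 6 libraries was as deep as 5. For 20 bases against 16 to 19 bases the ranges were -1.27 to 0.506 inside genes, -1.25 to 0.884 within 2 kb and -0.0714 to 0.376 at the ends. Against 19 bases alone these differences were 0.686, -0.315 and -0.192, with the ago104 library the 2-kb value was -0.632, and at a depth of at least 2 the genic value was 1.48. With ago104 the 21-minus-20 depth difference was -0.693 (exact permutation p = 0.03125). The cause was not tested.

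Window calls moved more, and those per 1000 isolated stretches only repeat the shares of the whole libraries. For mm minus Mm at 20 bases they came to 15 in windows of 2 Mb and 49 per 1000 isolated stretches, and without 1 library to 3 to 22. Against B73, mm gave 6 calls weighted by depth, 22 per 1000, and 2 to 24 without 1 library, namely 2 and 4 without B73 replicate 2 or 1, 8 without either Mm replicate, and 24 and 23 without mm replicate 1 or 2. A lone replicate was assumed to vary like the other groups. For Mm minus B73 they came to 49 per 1000, and 0 to 2 without 1 library. Scaling by the median ratio gave 8 higher and 1 lower for mm minus Mm, and 9 higher and 1 lower for mm minus B73. At 21 bases they came to 25 and 25 per 1000 for mm minus Mm and mm minus B73, with 0 to 3 and 0 to 1 without 1 library. The filter on windows with few stretches removed none and was not run.

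Replicate numbers are shared between genotypes but no label says what a number marks, and deviations of same-numbered libraries correlated at -0.0032 to 0.132 over windows. With the replicate number as a block, 9, 16 and 0 windows were called at 20 bases for mm minus Mm, mm minus B73 and Mm minus B73, and 0, 1 and 1 at 21 bases. The block left the share differences at -5.12, -1.11 and 4.00 points at 20 bases.

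Between replicates, sharing at 20 bases came to 1.60% when starts and ends could each differ by 1 base and 5.66% for a depth of at least 2, and at 21 bases to 1.42% for that depth. The matching means across genotypes were 0.832 and 2.74% at 20 bases and 1.48% at 21 bases, where the order of replicates and genotypes turned round.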

Other observations

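Tables of another part of the series, named by an antibody and a length class from 21 to 25, hold isolated stretches of their own. In all 10 of them the commonest isolated length was 2 bases below the class. For class 22 it was 20 bases, in 96.3% of isolated stretches of the AGO104 table and 96.8% of the AGO105 table. For class 23 it was 21 bases, in 94.3 and 93.8%. Whether the libraries follow the same relation is not stated. Their commonest isolated length was 17 bases in mm (33.0 and 34.6%), and 19 bases in Mm (41.4 and 41.8%) and B73 (41.5 and 40.7%). The study described a preference for RNAs of 24 bases in B73 and Mm, and of 22 bases in mm. How these lengths relate was not tested.

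The spacing of members differed between lengths and genotypes. Distance was taken from each stretch to the nearest of the same length on either side. Its median at 20 bases was 6685 and 4761 bp in mm, 1351 and 1341 bp in Mm, 408 bp in ago104, and 1896 and 1505 bp in B73. For 21-base stretches it was 15209 and 8636 bp in mm, 17360 and 16230 bp in Mm, 5564 bp in ago104, and 19516 and 10222 bp in B73. Another 21-base stretch within 1 kb on either side was found for 11.3 and 14.6% of 21-base stretches in mm, 6.49 and 6.79% in Mm, 12.1% in ago104, and 5.22 and 10.2% in B73.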
